A study of Homo sapiens with 18 samples.

Results

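The 10 genes of the YAP and TEAD pathway followed here were the target genes ANKRD1, CCN1 and CCN2, the coactivators YAP1 and WWTR1 (the gene of TAZ), the DNA-binding factor TEAD1, and LATS2, AJUBA, AMOTL1 and AMOTL2, which act on YAP and TAZ or on the kinases that restrain them. They were taken by symbol from a table of 62830 genes, and each of the 10 symbols matched 1 Ensembl gene. These genes and the lists below were chosen with earlier results of these data known. Their counts beside the shares over all genes are therefore descriptions and not tests. RNA was sequenced from MDA-MB-231, an established cell line from a human triple-negative breast tumour with mesenchymal traits. Wild-type cells (WT) and cells with a TRIM27 knockout (KO) were each measured untreated, after 24 h with 2 µM olaparib, an inhibitor of the enzymatic activity of PARP1 and PARP2, and 48 h after transfection of an siRNA against PARP1 (siPARP1, labelled 100 pM). Each of the 6 groups had 3 libraries, all labelled as 1 batch. The study set out to compare the transcriptomes after loss of TRIM27, loss of PARP1 and inhibition of PARP1, with invasion and metastasis in view. The protocols mention DMSO and a non-targeting siRNA, but the libraries used here as controls are labelled only by genotype, so both treatments are set against the same untreated cells. Effects of vehicle, of transfection and of the 24 h or 48 h of treatment therefore cannot be told apart from those of PARP1 inhibition or loss. The labels do not say whether the knockout cells are a single clone, nor whether the replicate libraries are from independent cultures. The p-values therefore reflect the variation among these libraries, and that variation may be purely technical.

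In the Hippo pathway, the kinases STK3 and STK4 activate LATS1 and LATS2, which phosphorylate YAP and TAZ and keep them in the cytoplasm. Unphosphorylated YAP and TAZ enter the nucleus, bind TEAD factors and raise the transcription of genes such as CCN1, CCN2 and ANKRD1, and also of regulators of the pathway such as LATS2 and AMOTL2, which feed back negatively. In breast cancer cells this pathway is known for responding to cell density, the cytoskeleton and matrix stiffness and for promoting growth and invasion. RNA levels do not show where YAP and TAZ are in the cell or whether they are phosphorylated.

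The promoters of ANKRD1 and CCN2 are shown because these genes changed most among the 10 and carried more than 1 copy of the letters that TEAD factors bind. Of the 10 genes, 8 had an entry among the RefSeq promoters (GRCh38.p14), with 11 windows of 250 bases before to 50 bases after a gene start. ANKRD1 lies at chr10:90921038-90921337 and CCN2 at chr6:131951323-131951622, both on the minus strand, and each is printed 5′ to 3′ along its gene. Capitals mark the TEAD motif GGAATG (searched on both strands, so CATTCC counts as well) and TGANTCA, a loose AP-1 pattern that takes any base at N (read the same on both strands).
ANKRD1: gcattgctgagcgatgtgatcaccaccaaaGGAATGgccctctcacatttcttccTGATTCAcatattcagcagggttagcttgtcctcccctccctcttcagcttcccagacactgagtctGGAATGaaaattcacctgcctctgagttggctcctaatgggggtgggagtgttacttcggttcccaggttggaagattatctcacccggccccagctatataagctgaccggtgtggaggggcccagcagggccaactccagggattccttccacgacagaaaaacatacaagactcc
CCN2: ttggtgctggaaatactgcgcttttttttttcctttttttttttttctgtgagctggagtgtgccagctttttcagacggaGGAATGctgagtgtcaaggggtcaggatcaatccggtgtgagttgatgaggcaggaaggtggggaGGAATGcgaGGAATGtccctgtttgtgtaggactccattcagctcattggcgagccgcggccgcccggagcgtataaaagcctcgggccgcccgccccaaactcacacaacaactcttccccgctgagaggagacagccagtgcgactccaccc
ANKRD1 held GGAATG starting 220 and 128 bases before its start and TGATTCA, a match to the loose AP-1 pattern, at 195 bases. CCN2 held GGAATG at 169, 104 and 95 bases before its start. No match overlapped another. Of 35116 windows in the whole table, 14% had at least 1 TEAD motif, 1.37% at least 2 and 0.128% at least 3, while 7.71% had the loose AP-1 pattern. A single TEAD motif stood in a window of AMOTL2 (69 bases before the start), YAP1 (162 bases before), AJUBA (59 bases before, in 1 of its 2 windows) and LATS2 (from the base numbered 10 after the start). None of the 11 windows held a CArG box, the binding site of SRF, which 1.29% of all windows had. CCN1 and TEAD1 had no entry. A match is a description of letters and not of a bound site.

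Values are FPKM, fragments counted per transcript length and per sequencing depth, as deposited by the authors. Differences are on the log2(FPKM + 1) scale with a standard error (SE), tested with limma in 1 fit of all 18 libraries, and a change was called at an adjusted p (Benjamini-Hochberg over 15764 genes) under 0.05. All 10 genes passed the filter of 1 FPKM in at least 3 libraries. TRIM27 fell from 1.45 ± 0.243 FPKM in untreated WT to 0.623 ± 0.066 FPKM in untreated KO cells (SD, n = 3), and PARP1 fell under siPARP1 to 19.1% of its untreated WT level in WT cells. With olaparib PARP1 was lower as well, by -0.52 in WT (adjusted p = 2.15e-05) and -0.45 in KO cells (adjusted p = 7.99e-05). With siPARP1 TRIM27 was higher, by 0.26 in WT (adjusted p = 0.0333) and 0.29 in KO cells (adjusted p = 0.0182). Of the marker lists, the mesenchymal list was present (6 of 6 genes at 1 FPKM or more) and the endothelial list was not (0 of 4), while 1 of 4 leukocyte markers (CD68) and at most 2 of 4 fibroblast markers reached 1 FPKM. The labels call the line epithelial, but of 8 epithelial markers only the keratins KRT8, KRT18 and KRT19 reached 1 FPKM, and GRHL2 was listed at 0 in every library. The summed epithelial markers moved with treatment and lay between 2417 and 2636 FPKM in untreated WT, 1671 and 2369 FPKM in WT olaparib and 1106 and 1204 FPKM in WT siPARP1 libraries. The summed mesenchymal markers lay between 2955 and 3230, 2160 and 2315, and 2668 and 2773 FPKM in the same groups. The part of these shifts in the results on the 10 genes was not tested. Read counts were not used, and the steps between low values put the depth of the libraries at 0.749 to 1.238 times that of untreated WT library 1. Unnamed loci held 43.4 to 49.8% of the summed FPKM and mitochondrial transcripts 19.0 to 28.2% of that of named genes, and both moved with treatment. All 44 calls made for the 10 genes were also made with values rescaled over named genes and with median-of-ratios scaling.

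Olaparib and siPARP1 both raised ANKRD1 and CCN2 strongly, while the other 8 genes moved less or in different directions under the 2 treatments. Under olaparib, 7 of the 10 genes passed in WT cells, 5 higher and 2 lower, where 45.4% of all tested genes passed (24.9% higher and 20.4% lower). In KO cells 4 of 10 passed with olaparib, 3 higher and 1 lower, against 47.2% of all genes (25.2% higher and 22% lower). Under siPARP1, 7 of 10 passed in WT cells, 3 higher and 4 lower, against 51.7% of all genes (29.5% higher and 22.3% lower). In KO cells 6 of 10 passed with siPARP1, 2 higher and 4 lower, against 54.7% (31.9% higher and 22.8% lower). The median log2 change of the 10 genes was 0.33 and 0.05 under olaparib in WT and KO cells, against 0.03 for all tested genes in both, and 0.04 and -0.37 under siPARP1, against 0.07 in both. The treatments share the untreated libraries, so their changes are not independent of each other.

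**Figure D1:**
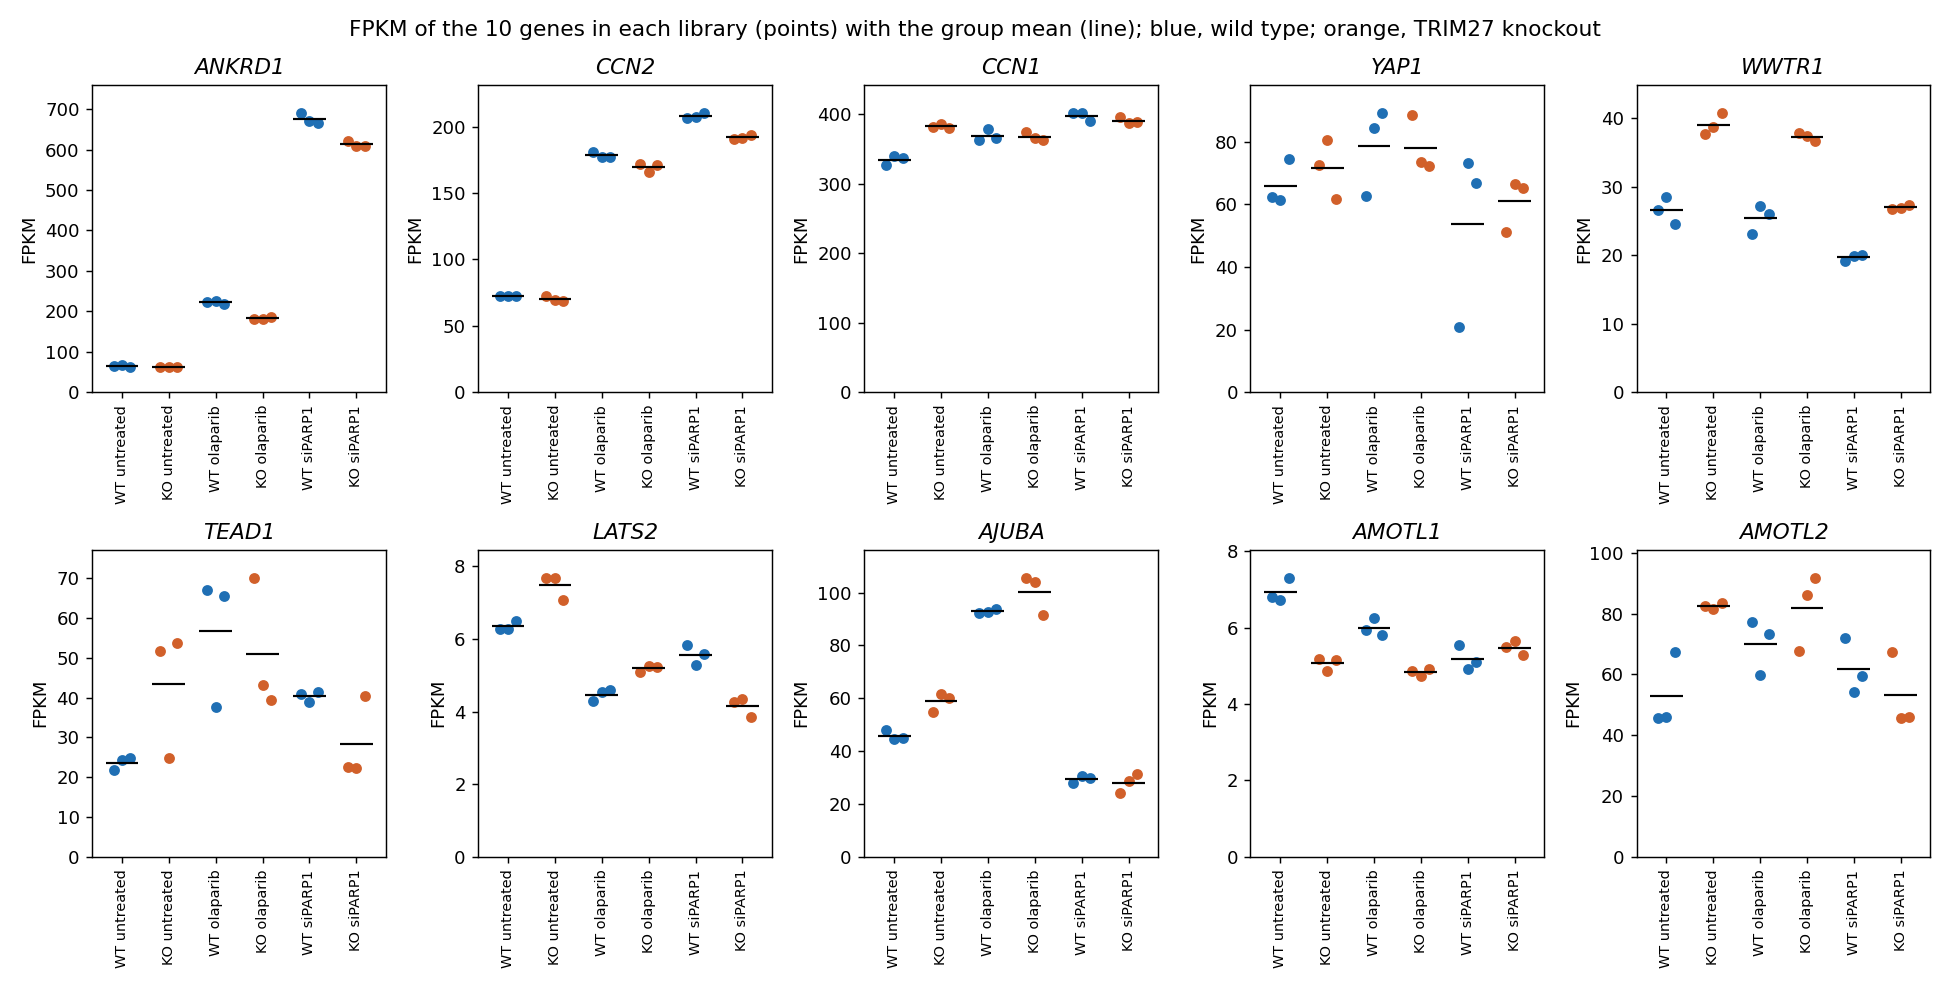
FPKM of the 10 genes (y axis, linear, from 0) in each of the 18 libraries (points, blue WT, orange KO) with the mean of each group (line). ANKRD1 and CCN2 form a step from untreated to olaparib to siPARP1 with little spread, WWTR1 is higher in KO than in WT cells at each treatment, and YAP1, TEAD1 and AMOTL2 vary between libraries of the same group.

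Knockout of TRIM27 without treatment went with higher WWTR1, AMOTL2, AJUBA, LATS2 and CCN1 and lower AMOTL1. These 6 of 10 calls, 5 higher and 1 lower, compare with 20.5% of all tested genes (9.58% higher and 10.9% lower). Under olaparib 4 of 10 differed between the genotypes, 2 higher in KO cells (WWTR1, LATS2) and 2 lower (ANKRD1, AMOTL1), against 12.8% of all genes (5.68% higher and 7.16% lower). Under siPARP1 4 of 10 differed, 1 higher (WWTR1) and 3 lower (ANKRD1, CCN2, LATS2), against 23.1% (11.8% higher and 11.2% lower). The response to treatment itself differed between the genotypes for 2 of 10 genes with olaparib, against 3.06% of all genes, and for 4 of 10 with siPARP1, against 5.26%. The median log2 difference of the 10 genes was 0.199 untreated, -0.004 with olaparib and -0.095 with siPARP1, against -0.009, -0.012 and -0.001 for all tested genes. WWTR1 was the gene called in the same direction in all 3 comparisons of the genotypes.

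**Figure D2:**
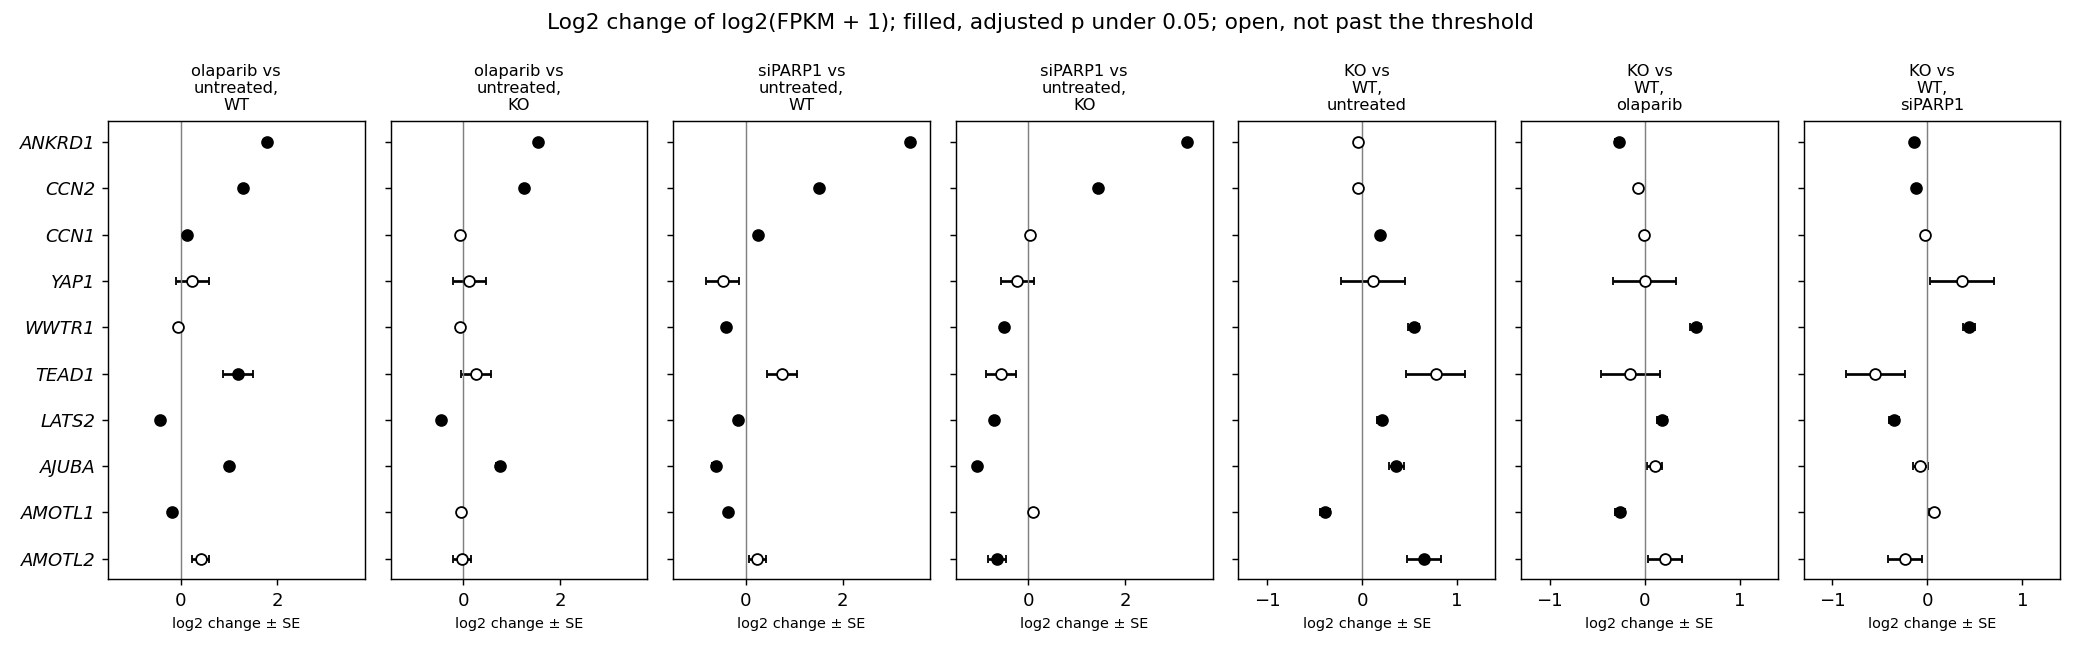
Log2 change with its SE (x axis, log2(FPKM + 1)) of the 10 genes (rows) in the 7 pairwise comparisons; filled points have an adjusted p under 0.05. The x axis runs further for the 4 treatment comparisons than for the 3 genotype comparisons. ANKRD1 and CCN2 lie far to the right under both treatments, AJUBA lies right under olaparib and left under siPARP1, and the bars of YAP1 and TEAD1 are the widest.

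ANKRD1, a nuclear ankyrin-repeat protein first known from heart muscle and a standard readout of YAP activity, had the largest response of the 10 (ENSG00000148677, GRCh38 chr10:90912096-90921276). It measured 63.9, 66.0 and 62.2 FPKM in untreated WT cells and 61.9, 62.0 and 62.8 FPKM in untreated KO cells. Olaparib took it to 223, 225 and 218 FPKM in WT cells and 182, 182 and 187 FPKM in KO cells. With siPARP1 it reached 691, 671 and 665 FPKM in WT cells and 623, 608 and 609 FPKM in KO cells. The untreated genotypes overlapped, and every later step of this order was free of overlap, with KO below WT at each treatment. The rise over untreated cells of the same genotype was a log2 of 1.78 (SE 0.034, adjusted p = 4.94e-14) in WT and 1.55 (adjusted p = 1.57e-13) in KO cells with olaparib, and 3.38 (adjusted p = 2.86e-17) and 3.28 (adjusted p = 4.36e-17) with siPARP1. In WT cells the mean was 3.47 times the untreated mean with olaparib and 10.6 times with siPARP1. KO cells were lower than WT cells by a log2 of -0.27 under olaparib (SE 0.034, adjusted p = 7.79e-05) and -0.14 under siPARP1 (adjusted p = 0.00791), but not untreated (-0.04, adjusted p = 0.46). The siPARP1 difference was lost with only the groups compared in the fit (adjusted p = 0.107). The olaparib rise was smaller in KO cells (interaction -0.23, SE 0.048, adjusted p = 0.0163), whereas the corresponding value for siPARP1 was -0.10 (adjusted p = 0.275).

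CCN2, also called CTGF, a secreted matricellular protein, followed the same order of groups as ANKRD1 over a smaller range (ENSG00000118523, chr6:131948176-131951373). It measured 72.3, 72.2 and 72.8 FPKM in untreated WT cells and 72.6, 69.7 and 68.7 FPKM in untreated KO cells. Olaparib gave 181, 178 and 177 FPKM in WT and 172, 166 and 171 FPKM in KO cells, and siPARP1 gave 207, 208 and 211 FPKM in WT and 191, 192 and 194 FPKM in KO cells. All 12 treated libraries lay above all 6 untreated ones. The log2 rise was 1.29 (SE 0.032, adjusted p = 5.84e-13) in WT and 1.26 (adjusted p = 6.39e-13) in KO cells with olaparib, and 1.51 (adjusted p = 1.83e-13) and 1.44 (adjusted p = 2.02e-13) with siPARP1. The rise did not differ detectably between the genotypes, with interactions of -0.03 (SE 0.045, adjusted p = 0.801) for olaparib and -0.08 (SE 0.045, adjusted p = 0.406) for siPARP1. Under siPARP1 the KO level was lower by a log2 of -0.12 (adjusted p = 0.0167), a call that was lost without WT siPARP1 library 3 (adjusted p = 0.0548) and with only the groups compared in the fit (adjusted p = 0.12). The residual SD of CCN2, 0.023 on the log2 scale, was lower than that of nearly all tested genes (percentile 0.292, against a median of 0.136 over all genes). An unnamed antisense gene, ENSG00000227220, overlaps CCN2 with a mean of 1.83 FPKM, and without a stated strand setting for the counting, reads of the pair may not be told apart.

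CCN1, also called CYR61, a close relative of CCN2, had the highest FPKM of the 10 in untreated and olaparib cells and moved little at the gene level (ENSG00000142871, chr1:85580761-85583962). Untreated WT cells had 327, 339.6 and 337 FPKM and untreated KO cells 381, 386 and 380.3 FPKM, without overlap (log2 0.19, SE 0.033, adjusted p = 0.000761). With olaparib CCN1 measured 362, 379 and 366 FPKM in WT and 374, 366 and 363 FPKM in KO cells, and with siPARP1 401, 402 and 390.3 FPKM in WT and 396, 387 and 388 FPKM in KO cells. In WT cells it rose by 0.14 with olaparib (adjusted p = 0.00307) and 0.25 with siPARP1 (adjusted p = 1.84e-05), while the KO changes of -0.06 and 0.03 did not pass (adjusted p = 0.161 and 0.486). Both interactions passed, at -0.20 with olaparib (SE 0.047, adjusted p = 0.0339) and -0.22 with siPARP1 (SE 0.047, adjusted p = 0.0135). Under other scalings of the libraries the KO change was called lower with olaparib (-0.14 rescaled over named genes, -0.09 with median-of-ratios scaling), and that with siPARP1 was -0.13 when rescaled over named genes. The olaparib interaction was lost in 9 of 12 fits that left out 1 library, with adjusted p from 0.059 to 0.0879. With only the groups compared in the fit both interactions were lost (adjusted p of 0.0606 with olaparib and 0.0509 with siPARP1).

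The sum of the 2 CCN1 transcripts that could be matched went the other way from the gene value in WT cells. CCN1-201, the protein-coding transcript of 2290 bases, measured 147 ± 16.1 FPKM in untreated WT and 169 ± 5.96 FPKM in untreated KO cells (SD, n = 3), and 87.0 ± 3.27, 95.1 ± 10.9, 87.5 ± 3.92 and 92.0 ± 6.59 FPKM in WT olaparib, KO olaparib, WT siPARP1 and KO siPARP1 cells. All 12 treated libraries (82.8 to 103 FPKM) lay below all 6 untreated ones (132 to 174 FPKM). Summed over its 2 matched transcripts, CCN1 fell with olaparib by a log2 of -0.75 (SE 0.082, adjusted p = 3.85e-06) in WT and -0.81 (adjusted p = 1.61e-06) in KO cells. With siPARP1 this sum fell by -0.72 (adjusted p = 3.83e-06) and -0.85 (adjusted p = 6.25e-07). These transcripts held 44.0% of the gene value in untreated WT cells, 23.6% with olaparib and 22.2% with siPARP1. Both CCN1 transcripts of GENCODE 29 are listed. Transcripts were assigned to genes by GENCODE 29, which matched 202893 of 251074 listed ones. Any CCN1 transcript outside it is therefore missing from the sum, and what makes up the rest of the gene value was not tested. For the other 9 genes the matched transcripts added up to the gene value. The gene value of CCN1 and this partial sum are thus unlike measures, and their difference in direction is not a conflict between 2 values of the whole gene. The interactions did not pass with transcript sums (-0.07, adjusted p = 0.847, and -0.13, adjusted p = 0.625). The difference between the untreated genotypes was also not called with transcript sums (0.20, SE 0.082, adjusted p = 0.0993).

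**Figure D3:**
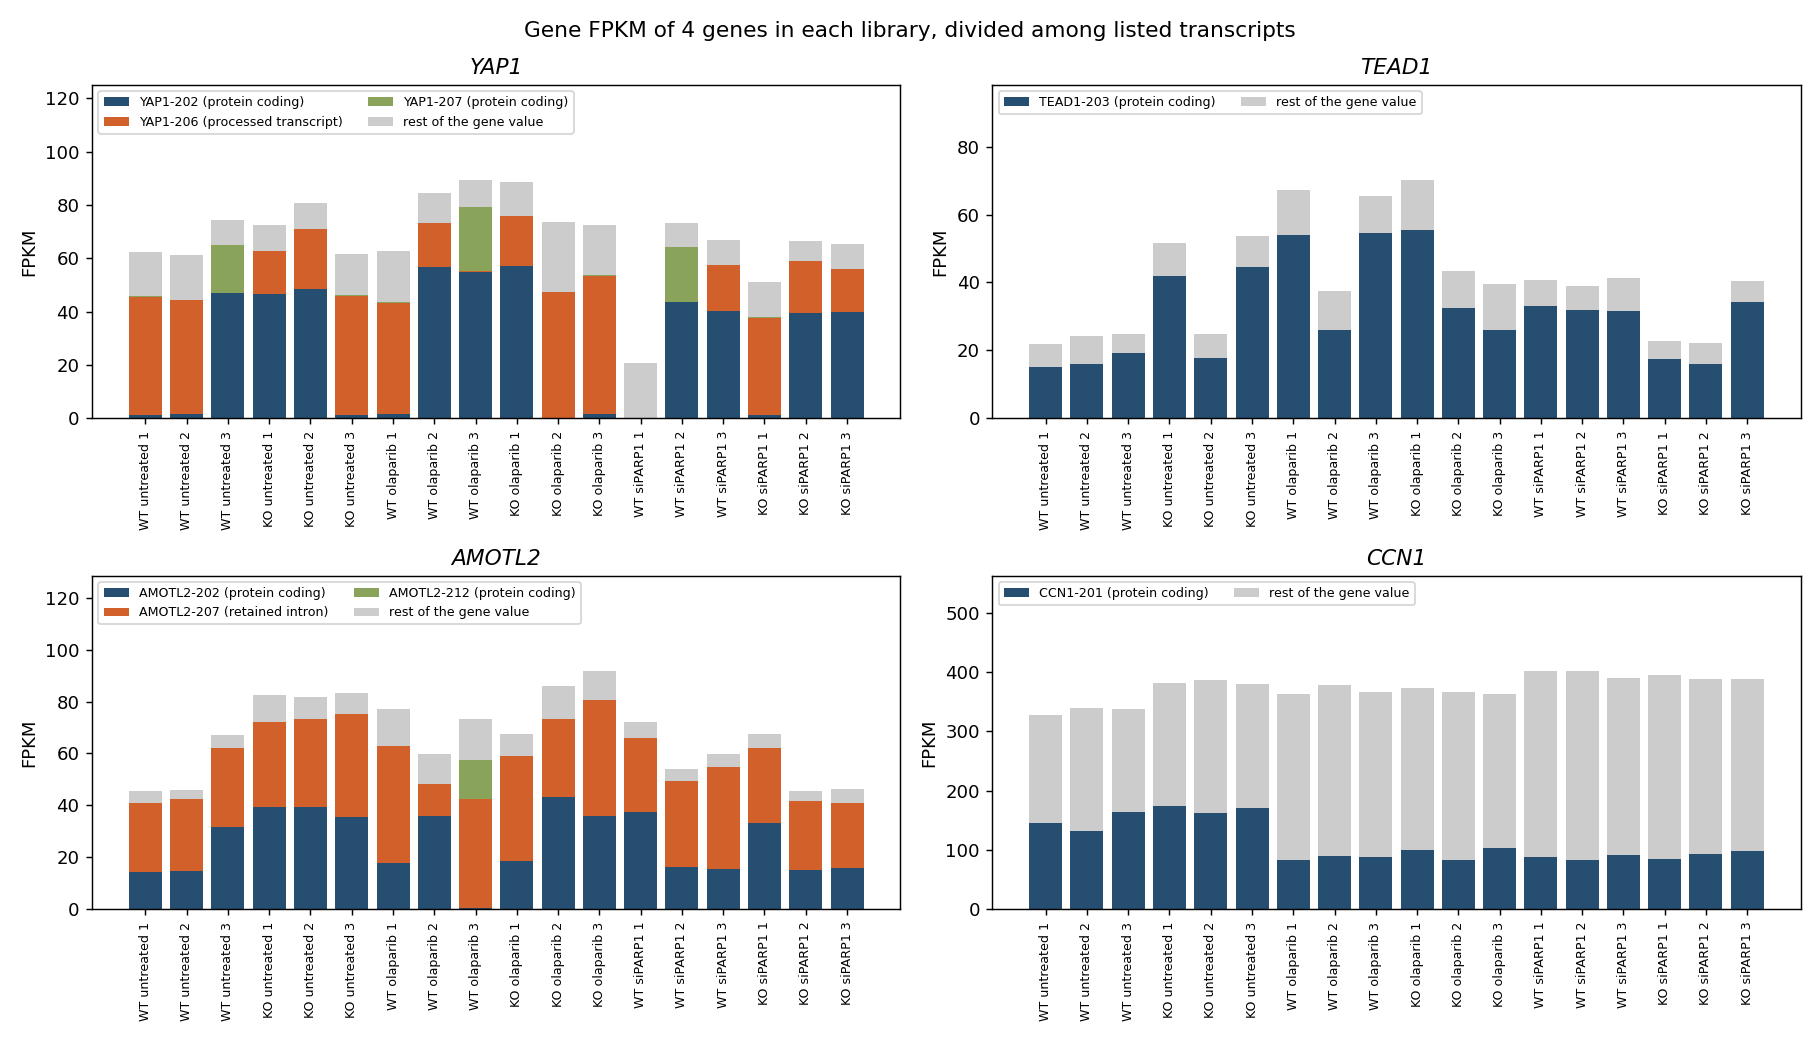
Gene FPKM (y axis, height of the bar) of YAP1, TEAD1, AMOTL2 and CCN1 in each of the 18 libraries (x axis), divided among the listed transcripts that differed most between libraries, with the rest in grey. YAP1-202 is at or near 0 in 8 libraries and between 39.4 and 57.1 FPKM in the other 10, and CCN1-201 is lower in every treated library than in every untreated one while the whole CCN1 bar is not.

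WWTR1, which encodes the coactivator TAZ, was the member that separated the genotypes in the same direction at each treatment (ENSG00000018408, chr3:149517235-149736714). It measured 26.6, 28.5 and 24.5 FPKM in untreated WT cells against 37.7, 38.7 and 40.8 FPKM in untreated KO cells. The values with olaparib were 23.1, 27.2 and 26.1 FPKM against 37.8, 37.3 and 36.8 FPKM, and with siPARP1 19.2, 19.9 and 20.0 FPKM against 26.8, 26.9 and 27.3 FPKM. Within each treatment every KO library lay above every WT library. The KO excess was a log2 of 0.54 untreated (SE 0.06, adjusted p = 1.54e-05), 0.54 with olaparib (adjusted p = 3.19e-05) and 0.44 with siPARP1 (adjusted p = 0.000117). WWTR1 fell with siPARP1 by -0.41 in WT (adjusted p = 4.84e-05) and -0.52 in KO cells (adjusted p = 4.47e-06). With olaparib the changes of -0.06 in both genotypes did not pass (adjusted p = 0.464 and 0.408). KO cells with siPARP1 had about the level of untreated WT cells (27.02 ± 0.273 and 26.6 ± 1.99 FPKM, SD, n = 3).

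YAP1, the other coactivator, passed in none of the 9 comparisons, and its libraries were too uneven to show a moderate change (ENSG00000137693, chr11:102110461-102233423). Untreated WT cells had 62.2, 61.3 and 74.5 FPKM and untreated KO cells 72.6, 80.6 and 61.7 FPKM. With olaparib it measured 62.8, 84.3 and 89.3 FPKM in WT and 88.4, 73.7 and 72.4 FPKM in KO cells. With siPARP1 it measured 20.8, 73.2 and 67.0 FPKM in WT and 51.2, 66.5 and 65.3 FPKM in KO cells. Neighbouring groups in the order of means all overlapped. The residual SD was 0.442, at percentile 95.5 of the tested genes. The siPARP1 change in WT cells was -0.48 (SE 0.335, adjusted p = 0.251), and without WT library 1 it was 0.09 (adjusted p = 0.686).

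The transcripts of YAP1 differed between libraries of the same group. The coding transcript YAP1-202, of 5284 bases, was between 0 and 1.675 FPKM in 8 libraries and between 39.4 and 57.1 FPKM in the other 10, and each of the 6 groups held both kinds. The shorter YAP1-206, a processed transcript of 1025 bases, was below 0.24 FPKM in 4 libraries and between 15.8 and 51.8 FPKM in 14. In WT siPARP1 library 1, which had the lowest gene value, YAP1-202 was listed at 0 and YAP1-206 at 0.23 FPKM. FPKM divides by transcript length, so a gene value that adds transcripts of different length moves with their assignment. Sums of the YAP1 transcripts weighted by their length in kilobases were uneven as well. They lay between 118 and 302 in untreated WT cells and between 85.4 and 287 in WT siPARP1 cells. The part of length and assignment in the YAP1 levels was not tested.

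TEAD1, the DNA-binding partner, was higher in WT cells with olaparib and otherwise passed in no comparison (ENSG00000187079, chr11:12674591-12944483). It measured 21.8, 24.3 and 24.9 FPKM in untreated WT cells and 67.1, 37.6 and 65.5 FPKM with olaparib, without overlap (log2 1.18, SE 0.311, adjusted p = 0.00632, and 1.04 to 1.45 when 1 of these libraries was left out). WT cells with siPARP1 had 40.8, 38.9 and 41.4 FPKM, all above untreated WT cells, but the change of 0.75 did not pass (adjusted p = 0.0574) in the fit of all groups. With only the 2 groups compared in the fit its adjusted p was 0.000374. KO cells were split, with 51.6, 24.9 and 53.8 FPKM untreated, 70.1, 43.3 and 39.5 FPKM with olaparib and 22.7, 22.2 and 40.5 FPKM with siPARP1. The main transcript TEAD1-203, of 8477 bases, was between 15.02 and 19.3 FPKM in 6 libraries and between 25.9 and 55.3 FPKM in 12, and both untreated and siPARP1 KO cells held both kinds. Leaving out untreated KO library 2 made KO cells higher than WT cells (1.13, adjusted p = 0.0169, against 0.78, adjusted p = 0.0974, with all libraries) and made TEAD1 lower in KO cells with siPARP1 (-0.92, adjusted p = 0.0164, against -0.57, adjusted p = 0.136). The latter also passed without KO siPARP1 library 3 (-0.85, adjusted p = 0.0404). Without untreated KO library 2 the siPARP1 interaction passed as well (-1.67, adjusted p = 0.0294, against -1.32, adjusted p = 0.107). Of the fits that left out 1 library, only 1 of 6, 2 of 6 and 1 of 12 passed for these 3 comparisons.

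LATS2, a kinase that phosphorylates YAP and TAZ and is itself a YAP target, fell with both treatments, and its siPARP1 fall was larger in KO cells (ENSG00000150457, chr13:20973032-21061547). Untreated it measured 6.27, 6.265 and 6.50 FPKM in WT and 7.68, 7.66 and 7.07 FPKM in KO cells. With olaparib it measured 4.28, 4.53 and 4.58 FPKM in WT and 5.08, 5.26 and 5.22 FPKM in KO cells, and with siPARP1 5.83, 5.29 and 5.57 FPKM in WT and 4.26, 4.33 and 3.86 FPKM in KO cells. KO cells were above WT cells without treatment and with olaparib and below them with siPARP1, each time without overlap. Olaparib lowered LATS2 by -0.43 in WT (SE 0.051, adjusted p = 8.87e-06) and -0.45 in KO cells (adjusted p = 4.75e-06). With siPARP1 the change was -0.16 in WT (adjusted p = 0.0153) and -0.72 in KO cells (adjusted p = 2.44e-08), and these differed (interaction -0.56, SE 0.072, adjusted p = 0.00034). The KO difference was 0.21 untreated (adjusted p = 0.0104), 0.18 with olaparib (adjusted p = 0.0317) and -0.35 with siPARP1 (adjusted p = 0.000183). The olaparib difference was lost in each of the 6 fits that left out 1 of its libraries (adjusted p from 0.0515 to 0.118), and the WT siPARP1 fall was lost without untreated library 3 or siPARP1 library 2 (adjusted p from 0.0539 to 0.0674). With only the groups compared in the fit LATS2 lost the untreated and olaparib differences between genotypes and the WT siPARP1 fall (adjusted p of 0.063, 0.0918 and 0.0606).

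AJUBA, a LIM-domain scaffold that binds and restrains the LATS kinases, went in opposite directions under the 2 treatments (ENSG00000129474, chr14:22971174-22982642). Untreated cells had 47.8, 44.4 and 44.9 FPKM in WT and 55.0, 61.8 and 60.1 FPKM in KO cells. Olaparib gave 92.3, 92.7 and 93.9 FPKM in WT and 106, 104 and 91.5 FPKM in KO cells, whereas siPARP1 gave 28.0, 30.4 and 29.8 FPKM in WT and 24.1, 28.6 and 31.4 FPKM in KO cells. All olaparib libraries lay above and all siPARP1 libraries below the untreated ones. The genotypes overlapped within each treatment but not in untreated cells, where KO lay above WT. The olaparib rise was 1.01 in WT (SE 0.081, adjusted p = 1.61e-07) and 0.76 in KO cells (adjusted p = 2.92e-06), and the siPARP1 fall was -0.62 (adjusted p = 1.58e-05) and -1.05 (adjusted p = 5.86e-08). Untreated KO cells were higher than WT cells by 0.36 (adjusted p = 0.00564). The siPARP1 interaction of -0.43 (SE 0.115, adjusted p = 0.0431) was lost in 10 of 12 fits that left out 1 library, with adjusted p from 0.0504 to 0.0942, and with only the groups compared in the fit (adjusted p = 0.0927). AJUBA-207, a listed transcript with a retained intron, was between 8.93 and 11.9 FPKM in the 6 olaparib libraries and between 2.02 and 4.62 FPKM in the other 12.

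AMOTL1 and AMOTL2 belong to the angiomotin family, junction proteins that bind YAP and hold it outside the nucleus. AMOTL1 was the less abundant and had even libraries (ENSG00000166025, chr11:94706431-94876753). It measured 6.81, 6.715 and 7.31 FPKM in untreated WT cells, the highest group, and 5.19, 4.87 and 5.14 FPKM in untreated KO cells. With olaparib it measured 5.93, 6.25 and 5.82 FPKM in WT and 4.875, 4.74 and 4.915 FPKM in KO cells, and with siPARP1 5.54, 4.91 and 5.11 FPKM in WT and 5.50, 5.64 and 5.27 FPKM in KO cells. Every other library lay below the 3 of untreated WT cells. KO cells were lower by -0.39 untreated (SE 0.05, adjusted p = 6.93e-05) and -0.26 with olaparib (adjusted p = 0.0031), but with siPARP1 the genotypes overlapped (0.07, adjusted p = 0.392). WT cells lost AMOTL1 with olaparib (-0.18, adjusted p = 0.00839) and siPARP1 (-0.36, adjusted p = 2.97e-05), and the siPARP1 change differed from that of KO cells, which was 0.09 (interaction 0.45, SE 0.071, adjusted p = 0.00171).

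AMOTL2 was more abundant and uneven (ENSG00000114019, chr3:134355874-134375479). Untreated WT cells had 45.6, 45.9 and 67.2 FPKM and untreated KO cells 82.4, 81.7 and 83.5 FPKM. With olaparib it measured 77.3, 60.0 and 73.2 FPKM in WT and 67.7, 86.0 and 91.8 FPKM in KO cells, and with siPARP1 72.0, 54.1 and 59.6 FPKM in WT and 67.4, 45.7 and 46.1 FPKM in KO cells. Only untreated KO cells were even. AMOTL2 was higher in untreated KO than WT cells (0.65, SE 0.179, adjusted p = 0.0179), a call that was lost without WT library 1 or 2 (adjusted p of 0.074 and 0.0726), and it fell in KO cells with siPARP1 (-0.65, adjusted p = 0.00652). The WT olaparib change of 0.42 did not pass (adjusted p = 0.073) but passed without untreated library 3 (0.60, adjusted p = 0.0146) or olaparib library 2 (0.52, adjusted p = 0.0491). The siPARP1 interaction of -0.89 (adjusted p = 0.0592) passed without untreated WT library 3 or KO siPARP1 library 1 (both -1.07, adjusted p of 0.0221 and 0.0218). Its coding transcript AMOTL2-202 was listed at 0.457 FPKM in WT olaparib library 3, where AMOTL2-212 held 14.8 FPKM, and AMOTL2-212 was at 0.051 FPKM or less in the other 17 libraries. A large part of the gene value was AMOTL2-207, a listed transcript with a retained intron. Its mean was 28.3 FPKM in untreated WT, 35.6 FPKM in untreated KO and 26.8 FPKM in KO siPARP1 cells. The gene means of these groups were 52.9, 82.5 and 53.1 FPKM.

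Most further target genes of YAP and TAZ were lower with siPARP1, where ANKRD1 and CCN2 were higher. From a list of 17 such genes without the members, all tested, 11 rose and 2 fell with olaparib in WT cells, with a median log2 change of 0.37, against 24.9% higher and 20.4% lower over all tested genes. In KO cells 7 rose and 4 fell (median 0.10), nearer to the 25.2% and 22% over all genes, and with either rescaling of the libraries 6 rose and 5 fell. With siPARP1 2 rose and 12 fell in WT cells (median -0.37), against 29.5% and 22.3% over all genes, and 2 rose and 12 fell in KO cells (median -0.41), against 31.9% and 22.8%. F3, the tissue factor gene, rose from 80.6 ± 2.78 to 413 ± 3.08 FPKM with olaparib in WT cells (SD, n = 3, log2 2.34, adjusted p = 2.55e-15) and from 115 ± 1.19 to 409 ± 4.74 FPKM in KO cells (1.82, adjusted p = 2.96e-14). With siPARP1 F3 rose to 127 ± 1.17 FPKM in WT cells (0.64, adjusted p = 1.12e-09), whereas in KO cells it measured 119 ± 2.33 FPKM and did not pass (0.04, adjusted p = 0.309). These responses of F3 differed (interaction -0.60, SE 0.047, adjusted p = 3.68e-06). NT5E, the ecto-enzyme CD73, rose with each treatment and most in KO cells with olaparib, from 37.0 ± 2.42 to 81.1 ± 1.78 FPKM (1.11, adjusted p = 1.35e-10).

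The largest falls of that list came with siPARP1. IGFBP3, a secreted binding protein of insulin-like growth factors, fell from 355 ± 6.04 to 99.6 ± 2.89 FPKM in KO cells (SD, n = 3, -1.82, adjusted p = 8.78e-14). In WT cells it measured 266 ± 7.01 FPKM untreated and 172 ± 3.84 FPKM with siPARP1. MYOF, a membrane repair protein, fell from 209.6 ± 12.95 to 100.5 ± 7.32 FPKM in WT cells (-1.05, adjusted p = 5.02e-09) and by -1.20 in KO cells (adjusted p = 9.97e-10). AXL, a receptor tyrosine kinase that is also 1 of the 6 mesenchymal markers, fell from 129 ± 0.915 to 70.8 ± 0.562 FPKM in WT cells (-0.86, adjusted p = 8.34e-11) and was also lower with olaparib (-0.33, adjusted p = 2.36e-06). NUAK2, a kinase of the AMPK family, rose with olaparib in WT cells from 5.89 to 11.8 FPKM (0.90, adjusted p = 2.57e-08). Between the untreated genotypes 9 of the 17 were higher and 3 lower in KO cells (median 0.26), against 9.58% and 10.9% over all genes, among them TGFB2 (0.59, adjusted p = 3.66e-07), NUAK2 (0.66, adjusted p = 2.66e-06) and, in the other direction, NT5E (-0.86, adjusted p = 1.29e-08). With olaparib 3 were higher and 3 lower in KO cells, against 5.68% and 7.16% over all genes, and with siPARP1 6 and 3, against 11.8% and 11.2%.

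**Figure D4:**
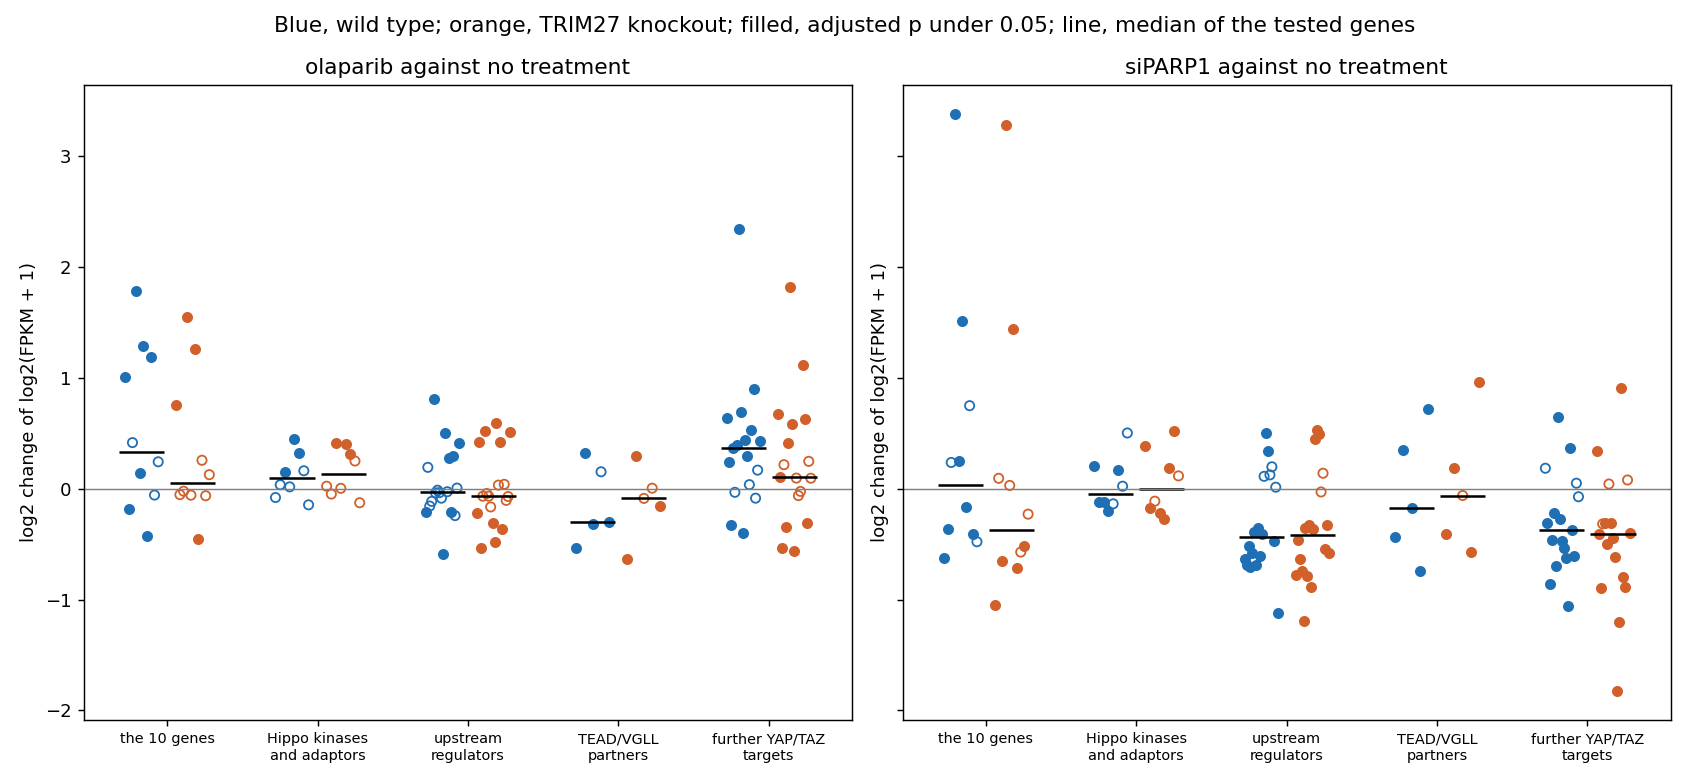
Log2 change of log2(FPKM + 1) (y axis) of the 10 genes and of the tested genes of 4 pathway lists without them (x axis), for olaparib (left) and siPARP1 (right) against untreated cells of the same genotype; blue is WT, orange KO, filled points have an adjusted p under 0.05, and lines are medians of the tested genes. The further targets have medians of 0.37 and 0.10 with olaparib and -0.37 and -0.41 with siPARP1, and the upstream regulators -0.44 and -0.42 with siPARP1.

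The core kinases and their adaptors, without LATS2, had median log2 changes of 0.09 in WT and 0.14 in KO cells with olaparib. With siPARP1 these medians were -0.05 and 0.001. Of 8 Hippo kinases and adaptors other than LATS2, all tested, 3 rose and none fell with olaparib in either genotype, 2 rose and 3 fell with siPARP1 in WT cells, and 3 rose and 3 fell in KO cells. Over all genes 45.4% and 47.2% were called with olaparib and 51.7% and 54.7% with siPARP1, and 8 genes are too few to be read against these shares. STK3, the kinase MST2, rose with olaparib from 14.5 to 20.1 FPKM in WT cells (0.45, adjusted p = 1.7e-05) and by 0.40 in KO cells (adjusted p = 4.01e-05). LATS1, the paralogue of LATS2, went against it with siPARP1, from 5.49 to 7.46 FPKM in KO cells (0.38, adjusted p = 3.7e-05). In WT cells its rise of 0.21 (adjusted p = 0.00594) was lost with values rescaled over named genes (0.10, adjusted p = 0.226) and with median-of-ratios scaling (0.13, adjusted p = 0.0794). The rises of the related kinase STK38, 0.17 in WT and 0.19 in KO cells, were lost with both as well (rescaled, 0.05 and 0.04, adjusted p of 0.363 and 0.469), so that neither WT rise with siPARP1 held under other scalings. Between the genotypes, 1 was higher (MOB1A) and 1 lower (MOB1B) in untreated KO cells, none differed with olaparib and MOB1B was lower with siPARP1, against 20.5%, 12.8% and 23.1% called over all genes. With only the groups compared in the fit these 3 calls were lost (adjusted p of 0.153 for MOB1A, and 0.0568 and 0.0791 for MOB1B).

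Most upstream regulators were lower with siPARP1. Of 18 genes that feed into the kinases, 2 rose and 12 fell with siPARP1 in WT cells (median -0.44), and 3 rose and 13 fell in KO cells (median -0.42). Over all tested genes 29.5% rose and 22.3% fell in WT and 31.9% and 22.8% in KO cells. With olaparib 5 rose and 3 fell in WT and 5 rose and 5 fell in KO cells, near the 24.9% and 20.4%, and 25.2% and 22%, over all genes. FRMD6, a FERM-domain protein that activates the kinases, rose with olaparib in both genotypes. It went from 157 ± 7.51 to 276 ± 2.71 FPKM in WT cells (SD, n = 3, 0.81, adjusted p = 7.57e-10) and rose by 0.52 in KO cells (adjusted p = 7.43e-08). With siPARP1 it fell from 197 ± 4.08 to 85.6 ± 2.62 FPKM in KO cells (-1.20, adjusted p = 7.1e-12) and measured 105 ± 0.459 FPKM in WT cells. WWC3, of the KIBRA family, fell with siPARP1 in WT cells from 7.79 to 3.04 FPKM (-1.12, adjusted p = 1.28e-07) and was lower in untreated KO cells (-0.75, adjusted p = 3.91e-05). PTPN14, a phosphatase that binds YAP and is counted in the target list too, fell in KO cells from 23.7 to 12.3 FPKM (-0.89, adjusted p = 8.79e-09). The kinases TAOK1 and TAOK2 were among the exceptions, with rises of 0.51 and 0.34 in WT cells (adjusted p of 1.03e-07 and 2.32e-05). In untreated cells 7 of the 18 were higher and 3 lower in KO cells, against 9.58% and 10.9% over all genes. With olaparib 4 were higher and 2 lower, against 5.68% and 7.16%, and with siPARP1 3 and 2, near the 11.8% and 11.2% over all genes.

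Partners of TEAD changed in both directions. Of 7 TEAD and VGLL genes besides the members 5 were tested, and VGLL1 was listed at 0 in every group. With olaparib 1 rose and 3 fell in WT and 1 rose and 2 fell in KO cells, and with siPARP1 2 rose and 3 fell in WT and 2 rose and 2 fell in KO cells. Over all genes 45.4% and 47.2% changed with olaparib and 51.7% and 54.7% with siPARP1, and 5 genes are too few to be read against these shares. VGLL4, which competes with YAP for TEAD, rose with siPARP1 from 15.7 ± 0.719 to 26.3 ± 0.839 FPKM in WT cells (SD, n = 3, 0.72, adjusted p = 5.52e-08) and from 17.2 ± 0.754 to 34.5 ± 1.46 FPKM in KO cells (0.96, adjusted p = 1.86e-09). VGLL3 fell with siPARP1 from 9.50 to 5.27 FPKM in WT cells (-0.74, adjusted p = 5.67e-07) and by -0.58 in KO cells (adjusted p = 6.62e-06). TEAD4 was lower in KO than WT cells without treatment (12.8 ± 1.01 against 19.9 ± 1.35 FPKM, -0.60, adjusted p = 2.06e-05), with olaparib (-0.37, adjusted p = 0.00239) and with siPARP1 (-0.48, adjusted p = 0.00015), the reverse of WWTR1. Between the genotypes 1 was higher and 1 lower untreated, 1 and 1 with olaparib, and 2 and 2 with siPARP1, where 20.5%, 12.8% and 23.1% of all genes differed.

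Targets of SRF and its MRTF cofactors, which answer to the actin cytoskeleton and partly overlap YAP targets, were read as a neighbouring programme. Of 16 genes 15 were tested, and in KO against WT cells 7 were higher and none lower untreated (median 0.28), 5 and none with olaparib (0.15) and 10 and none with siPARP1 (0.40). Over all genes 9.58% were higher and 10.9% lower untreated, 5.68% and 7.16% with olaparib, and 11.8% and 11.2% with siPARP1. With treatment they were mixed, with 4 higher and 4 lower under olaparib in WT cells, 6 and 3 in KO cells, 4 and 6 under siPARP1 in WT cells and 7 and 5 in KO cells, where 45.4%, 47.2%, 51.7% and 54.7% of all genes changed in either direction. Of the other 4 genes of the CCN family only CCN3 was tested, at 1.39 FPKM in untreated WT and 0.03 FPKM in untreated KO cells (log2 -1.21, adjusted p = 2.88e-07). It was named after its values were seen.

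The genes nearest in profile were sought for ANKRD1, CCN1 and CCN2. Likeness was measured over the 18 libraries as the root mean square (RMS) difference of log2(FPKM + 1), each gene centred on its own mean, among 8829 genes. The nearest to ANKRD1 were MT-TV, PDE7B-AS1 and MT-TF, at RMS differences of 0.461, 0.537 and 0.552, where the RMS of ANKRD1 about its own mean was 1.36. CCN2 had nearer neighbours, MT-TS2, SERTAD1 and BLCAP, at 0.108, 0.112 and 0.114 against its own 0.655. For CCN1 they were USP47, PLS3 and AHCY, at 0.057, 0.057 and 0.064 against 0.083, so that a flat profile already came close. MT-TV, MT-TF and MT-TS2 are mitochondrial transfer RNA genes, and the libraries were made from polyadenylated RNA. The mean mitochondrial share of named genes rose as well, from 21.2% in untreated WT to 24.8% in WT olaparib and 25.8% in WT siPARP1 libraries. Whether these genes share regulation with ANKRD1 or CCN2 was not tested.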

How the data were processed

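The values are FPKM per gene and per transcript as deposited by the authors for 18 libraries of polyadenylated RNA. The submitters' processing notes name GRCh38, fastp 0.23.2, HISAT2 2.2.1, featureCounts 2.0.3 and StringTie 2.2.1; which of them made the FPKM, the annotation release and the strand setting are not given in the sources used here. Read counts and absolute depth were not used, so no counting intervals are given. Ensembl identifiers were matched to symbols (61757 of 62830 listed genes) and to GENCODE 29 positions (58308), and 202893 of 251074 listed transcripts were matched to genes.

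The 15764 genes that reached 1 FPKM in 3 or more libraries were fitted on log2(FPKM + 1) with limma 3.58.1 (R 4.3.3), with a mean-dependent prior variance, 6 groups and 12 residual degrees of freedom (prior 2.06). Adding 1 FPKM understates the change of low genes. The 9 comparisons were 7 pairs of groups and 2 interactions, each adjusted by Benjamini-Hochberg over all tested genes, with a threshold of 0.05. Libraries of a group correlated at 0.9822 to 0.9882 and none were identical. The fit was tested on simulated data. Alternatives were the pseudocount, filters, scalings, transcript sums, prior, groups in the fit, a replicate block and leaving out each library.

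The named genes are the 10 members, TRIM27 and PARP1, and from each pathway list and pair of groups up to 2 largest rises and 2 largest falls past the threshold, with at least 5 FPKM in the higher group and no overlap of libraries; of these a selection is described. For ANKRD1, CCN1 and CCN2 the 3 nearest genes by RMS difference are named. Members and lists were chosen with earlier results of these data known. Promoters are from RefSeq (GRCh38.p14).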

Additional observations from a re-analysis of the deposited data

Results flagged for a closer look

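For 6 gene and treatment pairs the response to treatment differed between TRIM27 knockout and wild-type cells by limma's interaction term (log2 scale, knockout response minus wild-type response, adjusted p under 0.05). With olaparib the term was -0.233 for ANKRD1, whose rise was smaller in knockout cells, and -0.199 for CCN1. With siPARP1 it was -0.556 for LATS2, whose fall was larger in knockout cells, -0.432 for AJUBA, -0.22 for CCN1 and 0.454 for AMOTL1, which fell in wild-type cells while its change of 0.093 in knockout cells did not pass. The terms of ANKRD1, LATS2, AMOTL1 and the siPARP1 term of CCN1 passed in all 12 fits that left out 1 library, whereas those of AJUBA and of CCN1 with olaparib did not. With only the groups compared in the fit the siPARP1 term of CCN1 was lost too (adjusted p = 0.0509), as it was with transcript sums and length-weighted sums (adjusted p of 0.625 and 0.588).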

How the results depend on the processing

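Of 44 calls for the 10 genes, 32 held under every alternative run and 12 were lost or reversed under at least 1. All 44 held with a pseudocount of 0.1, a filter of 5 FPKM and both rescalings. Transcript sums, which cover only part of the CCN1 gene value, reversed CCN1 in wild-type cells, to -0.747 with olaparib and -0.723 with siPARP1. Length-weighted sums, chosen after seeing the data, gave -0.751 and -0.739. Only the length-weighted sums turned ARHGEF17 under siPARP1 in knockout cells, to -0.058 (adjusted p = 0.562 by limma). Of 83 named pathway changes 64 held under every alternative run and 19 were lost or reversed under at least 1. The olaparib interaction was called for 1 gene and not 2 with no filter, transcript sums, length-weighted sums, a constant prior variance or only the groups compared. With only those groups, 2 genes and not 4 were called for knockout against wild type under siPARP1 and for the siPARP1 interaction. The cause was not tested, although fits of fewer groups have fewer residual degrees of freedom.

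Leaving out 1 library gave 5 to 7, 3 and 3 to 4 called genes between genotypes (untreated, olaparib, siPARP1), 7 to 8 and 4 with olaparib (wild type, knockout), 6 to 7 with siPARP1 in either genotype, and 1 to 2 and 3 to 4 for the interactions. Deviations of same-numbered libraries from their group means correlated at -0.071 to 0.087 over 45 pairs, and those of other libraries at -0.107 to 0.059 over 90 pairs. These values cannot show whether same-numbered libraries share a culture or day. With the replicate block the AJUBA siPARP1 interaction was lost (adjusted p = 0.0579 by limma) and TEAD1 under siPARP1 in wild-type cells was called (adjusted p = 0.0337).

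Over all genes, length-weighted sums called 864 and 1314 genes for the interactions against 482 and 829. With only the groups compared, 2210 against 3634 genes differed between genotypes under siPARP1, and 507 against 829 for its interaction. Without untreated wild-type library 1 the olaparib interaction had 312. Rescaling over named genes moved the higher share of siPARP1 calls from 57.0 to 43.3% in wild-type and from 58.4 to 44.0% in knockout cells, with medians of all genes shifted by -0.1 and -0.107. Depth is known only in relative terms, so the precision of low values is not.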
